A study of Drosophila melanogaster with 4 samples.

Results

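The Hsp70 family heat shock genes of Drosophila melanogaster were followed in larvae mutant for invadolysin, a gene for a conserved zinc metalloprotease. The list held 10 genes: the 6 heat-inducible Hsp70 copies Hsp70Aa, Hsp70Ab, Hsp70Ba, Hsp70Bb, Hsp70Bbb and Hsp70Bc, the heat-inducible relative Hsp68, and the cognates Hsc70-3, Hsc70-4 and Hsc70-5. Members were taken by gene symbol in the annotation of the array's probes, and 7 of the 10 had a probe of their own, 1 each, among 11980 named genes and 13891 features tested. Hsp70Aa, Hsp70Bb and Hsp70Bc have no value here, and 0 probes listed several family members together. Total RNA of larvae carrying the invadolysin allele 4Y7 was set against total RNA of Canton S wild-type larvae on 4 arrays of 2 colours, with stocks kept at 25 degrees and no heat treatment named in the labels. The mutant was labelled with Cy5 on replicates 1 and 4 and with Cy3 on replicates 2 and 3. The labels give the stage as larva without an age or sex, and they do not give the genetic background of the 4Y7 stock, so the allele and any other difference between the stocks cannot be told apart.

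Hsp70 proteins are ATP-driven chaperones that bind exposed hydrophobic stretches of unfolded proteins, release them on nucleotide exchange, and work with J-domain proteins and exchange factors. In the fly the Hsp70 copies are nearly silent in unstressed cells and are transcribed strongly after heat or other proteotoxic stress, when the heat shock factor Hsf binds their promoters. The Hsc70 cognates are expressed without stress: Hsc70-4 is the main cytosolic form, Hsc70-3 is the BiP protein of the endoplasmic reticulum, and Hsc70-5 is the mitochondrial form.

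Each value is a log2 ratio of 4Y7 mutant over Canton S on 1 array, so that 1 stands for a doubling. No label states which genotype is on top of the ratio. Mutant over wild type is the likely reading of the sample titles, and with the opposite direction every sign below turns round. That the dye-swapped arrays had already been turned to the same direction was inferred from correlations over probes between arrays of opposite dye orientation (mean r = 0.217, or 0.035 without replicate 1). Ratios left unturned would make a value of the same sign on all arrays a difference between dyes. Replicate 4 stood apart, with r of 0.213, 0.031 and 0.039 with replicates 1, 2 and 3. The highest r of any pair, 0.651, was between replicates 2 and 3, both with the mutant in Cy3. Array medians lay between -0.0015 and 0.0128. Because only ratios are given, the level of a gene in either genotype and the presence of larval marker transcripts could not be examined.

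The 3 Hsp70 copies lay apart from the other members, heat-inducible Hsp68 included. The 3 measured Hsp70 copies were 3.94 to 5.98 times as abundant in mutant as in wild-type larvae by their mean ratios, and Hsp70Ba and Hsp70Bbb rose past the threshold over all features. Hsp68 and the 3 cognates lay below 0 on every array, and none of these 4 passed. In limma, a linear model with moderated variances applied to all 13891 features, 2 of the 7 measured members passed a Benjamini-Hochberg adjusted p of 0.05, both higher, against 0.821% of all features in either direction, 0.396% higher and 0.425% lower. At an unadjusted p under 0.05 all 7 passed, 3 higher and 4 lower, where 19.2% of all features did, 7.91% higher and 11.3% lower. In whole-larva RNA, more cells with a transcript and more transcript per cell cannot be told apart.

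**Figure D1:**
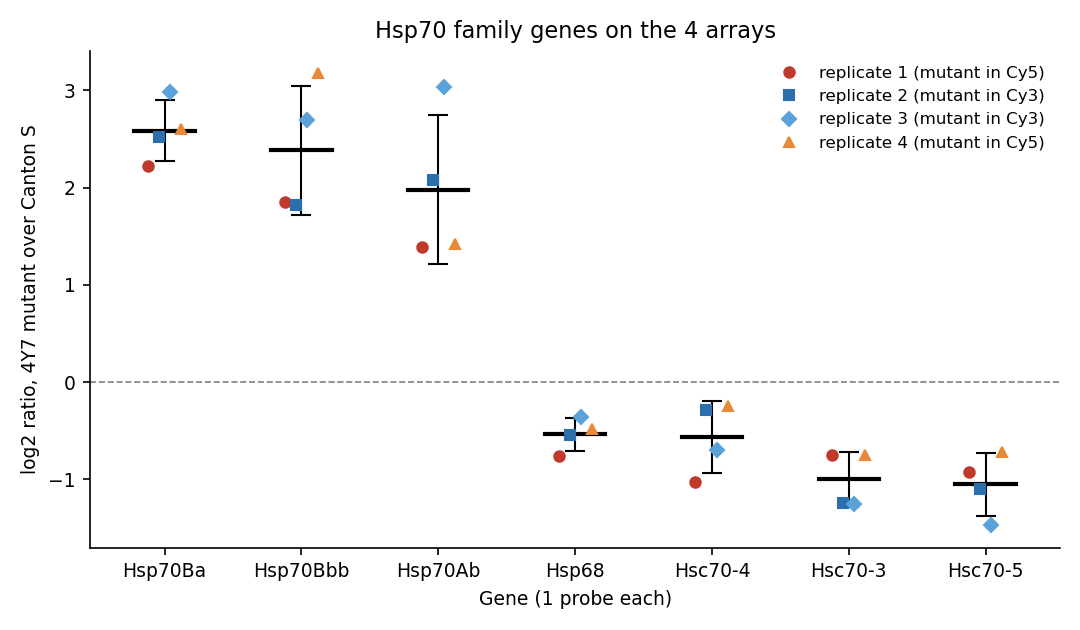
Log2 ratio of 4Y7 mutant over Canton S (vertical axis) for the 7 measured family genes, with 1 symbol for each of the 4 arrays, the mean as a thick bar and the SD as whiskers. The 12 values of the Hsp70 copies lie between 1.39 and 3.17, and the 16 values of Hsp68 and the cognates lie between -1.47 and -0.25.

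Hsp70Ba is a copy at the Hsp70B locus of chromosome arm 3R. Its log2 ratios on replicates 1 to 4 were 2.22, 2.52, 2.98 and 2.60. The 4 values lay close together and far from 0, with replicate 3 highest. Their mean was 2.58 ± 0.31 (SD, n = 4), or 5.98-fold, with a 95% interval of 2.13 to 3.03 and a limma adjusted p of 0.014. Ranked from the top of all 13891 features, Hsp70Ba was at place 70, 49, 38 and 50 on replicates 1 to 4 and at place 16 by its mean. Without replicate 1 its call was lost (limma adjusted p = 0.217, log2 2.70), as were all other calls of the study, and it kept its call without replicate 2, 3 or 4.

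Hsp70Bbb lies at the same locus and encodes the same kind of inducible cytosolic chaperone. Its log2 ratios were 1.85, 1.82, 2.69 and 3.17 on replicates 1 to 4. Here replicate 4 was highest, and replicates 1 and 2 lay together below the other pair. The mean was 2.38 ± 0.66 (SD, n = 4), or 5.22-fold, with an interval of 1.72 to 3.05 and a limma adjusted p of 0.0384. This call was lost without any 1 of the 4 arrays, with limma adjusted p = 0.217, 0.0611, 0.111 and 0.0531 without replicates 1 to 4, while the mean stayed between 2.12 and 2.57.

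Hsp70Ab, the measured copy of the Hsp70A locus on 3R, had log2 ratios of 1.39, 2.08, 3.03 and 1.42 on replicates 1 to 4. It was above 0 on all arrays but varied most of the 7 members, with replicate 3 highest. Both values of Hsp70Ab with the mutant in Cy3 lay above both with it in Cy5. Its mean of 1.98 ± 0.77 (SD, n = 4), or 3.94-fold, just missed the threshold (interval 1.24 to 2.72, limma adjusted p = 0.0551). Quantile normalization between arrays moved it to the other side (limma adjusted p = 0.0466, log2 1.96). The copies are nearly identical in sequence, so their probes may hybridise with transcripts of the other copies, including the 3 without a probe, and which copy a value stands for is uncertain.

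Neighbours in the order of the 3 copies did not differ beyond their spread. Hsp70Ba minus Hsp70Bbb averaged 0.20 ± 0.54 over the arrays and Hsp70Bbb minus Hsp70Ab 0.40 ± 0.97 (SD, n = 4), while the 2 outer copies, Hsp70Ba minus Hsp70Ab, differed by 0.60 ± 0.53. The copies did not share the array of their highest value: it was replicate 3 for Hsp70Ba and Hsp70Ab and replicate 4 for Hsp70Bbb.

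Hsp68, a heat-inducible Hsp70 relative encoded elsewhere on 3R, lay on the other side of 0 from the copies. Its log2 ratios were -0.76, -0.54, -0.36 and -0.49 on replicates 1 to 4. All were below 0 and close together, and 91.4% of all features had a larger SD over the arrays. The mean was -0.54 ± 0.17 (SD, n = 4; interval -0.93 to -0.14), with a limma adjusted p of 0.162. Hsp70Ba minus Hsp68 was 3.12 ± 0.15 over the arrays (SD, n = 4), the pair of members with the smallest spread of their difference, and the mean of the 3 copies minus Hsp68 was 2.85 ± 0.30.

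**Figure D2:**
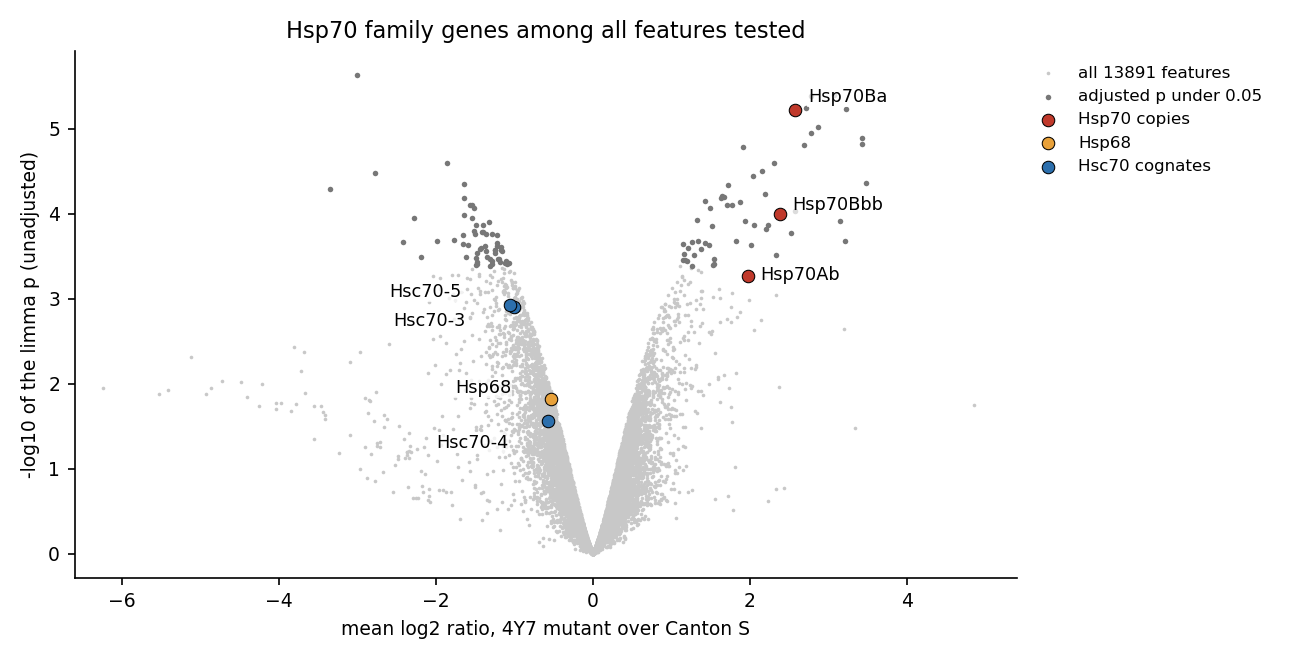
Mean log2 ratio of 4Y7 mutant over Canton S (horizontal axis) against -log10 of the unadjusted limma p (vertical axis) for all 13891 features, with features past the adjusted threshold in dark grey and the 7 family genes coloured by class. Hsp70Ba, at 2.58, and Hsp70Bbb, at 2.38, stand among the dark points on the right, Hsp70Ab lies just under them, and Hsp68 and the 3 cognates lie left of 0 among features that did not pass.

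The cognates, which fold proteins in unstressed cells, were lower in the mutant on all arrays without passing the threshold. Hsc70-5, the mitochondrial Hsp70 on 2R, had log2 ratios of -0.92, -1.10, -1.47 and -0.72 on replicates 1 to 4, a mean of -1.05 ± 0.32 (SD, n = 4; interval -1.51 to -0.60, limma adjusted p = 0.0661). Replicate 3 was the lowest and replicate 4 the nearest to 0. Hsc70-3, the BiP gene on the X chromosome, had -0.75, -1.25, -1.25 and -0.75, a mean of -1.001 ± 0.29 (interval -1.44 to -0.56, limma adjusted p = 0.0669). Its values paired by dye, with the lower pair on the arrays with the mutant in Cy3. For Hsc70-5 too, both values with the mutant in Cy3 lay below both with it in Cy5.

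Hsc70-4, the cytosolic cognate on 3R that also uncoats clathrin vesicles, had log2 ratios of -1.03, -0.29, -0.70 and -0.25 on replicates 1 to 4. Replicate 1 was the lowest, and replicates 2 and 4 lay near each other above the other pair. The mean was -0.57 ± 0.37 (SD, n = 4; interval -1.04 to -0.09), with a limma adjusted p of 0.203. By mean ratio 2.99% of all features lay below Hsc70-5, 3.45% below Hsc70-3 and 11.5% below Hsc70-4, so the cognates were in the lower part of the table and not at its end.

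The comparison of heat-inducible genes with cognates was made within each array. The mean of the 4 measured inducible genes minus the mean of the 3 cognates was 2.07, 2.35, 3.23 and 2.25 on replicates 1 to 4, an average of 2.47 ± 0.51 (SD, n = 4). Replicate 3 gave the widest gap, with the highest mean of the inducible genes and the lowest mean of the cognates. Without Hsp68 the difference was 3.19 ± 0.58, while Hsp68 alone was 0.34 ± 0.32 above the cognates. No p is given for these differences, because the members were chosen with results of these data known. Every array value of the 3 copies lay above every value of Hsp68 and the cognates (lowest 1.39, highest -0.25). This split sets Hsp68 beside the cognates, unlike the planned comparison, and was drawn with the values known, so it is no test. Between the planned groups, the range of Hsp68, a heat-inducible gene in the plan, overlapped that of each cognate. The copies may share signal through their probes and are not separate observations. All 7 members kept the same sign on all 4 arrays, against 28.9% of all features (14% higher and 14.9% lower).

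**Figure D3:**
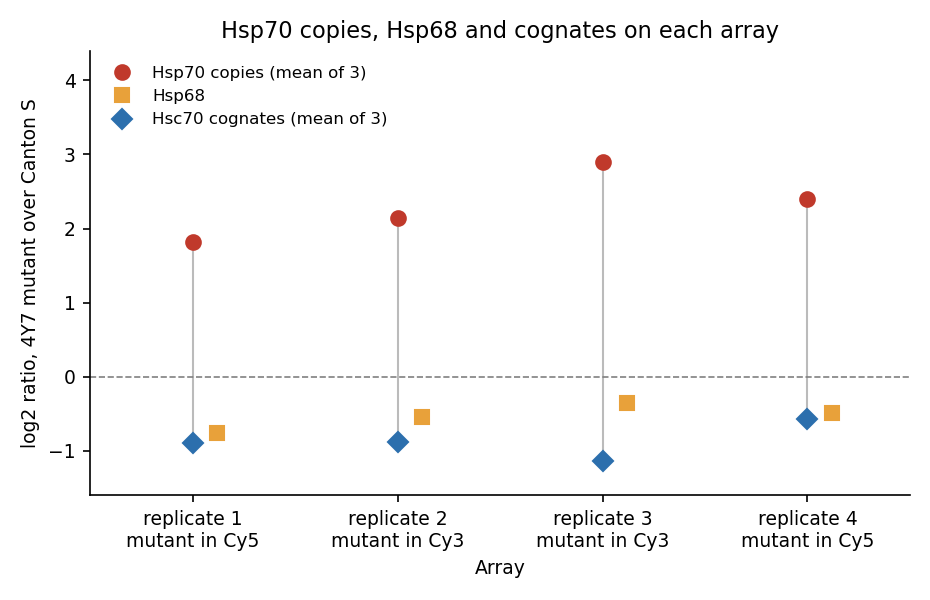
Log2 ratio of 4Y7 mutant over Canton S (vertical axis) on each of the 4 arrays for the mean of the 3 measured Hsp70 copies, for Hsp68 and for the mean of the 3 Hsc70 cognates, with a line joining copies and cognates of 1 array. The copies lie between 1.82 and 2.90 and the cognates between -1.14 and -0.57, and Hsp68 lies 0.34 above the cognates on average.

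From the highest to the lowest mean ratio the order was Hsp70Ba, Hsp70Bbb, Hsp70Ab, Hsp68, Hsc70-4, Hsc70-3 and Hsc70-5. Of the 6 steps between neighbours in this order, only that of Hsp70Ab to Hsp68, 2.52 ± 0.65 (SD, n = 4), was larger than the SD of its difference over the arrays. The other steps were between 0.03 and 0.44. With the ratios taken as already turned, every sign was the same in both dye orientations, which does not test that reading. Averaged within the Cy5 pair (replicates 1 and 4) and the Cy3 pair (replicates 2 and 3), the log2 ratio was 2.41 and 2.75 for Hsp70Ba, 2.51 and 2.26 for Hsp70Bbb, 1.40 and 2.55 for Hsp70Ab, and -0.62 and -0.45 for Hsp68. The cognate means were -0.75 and -1.25 for Hsc70-3, -0.64 and -0.50 for Hsc70-4, and -0.82 and -1.28 for Hsc70-5.

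Other genes of the chaperone system were read in the same fit, in lists described by counts beside the median of all features, 0.02. Of all features 0.821% passed the threshold, so 0 calls in a list is near that share. The 4 further genes of the Hsp70 superfamily, 0 of them past the threshold, all had means below 0, against 48.5% of all features, with a list median of -0.65. Grp170, an exchange factor for BiP in the endoplasmic reticulum, was at -1.03 ± 0.19 (SD, n = 4; limma adjusted p = 0.0574), and Hsp110, the cytosolic exchange factor, at -0.68 ± 0.14 (0.0986). Hsc70-1 was at -0.62 ± 0.24 (0.139). The values of Hsc70-2 were -0.94, 0.41, -0.20 and -0.85 on replicates 1 to 4, so this cognate had no common sign.

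Hsf, the gene of the transcription factor that drives Hsp70 after heat, had log2 ratios of 0.33, 0.35, 0.30 and 0.42 on replicates 1 to 4. The values were alike and above 0 on all arrays, but the mean of 0.35 ± 0.05 (SD, n = 4) did not pass (limma adjusted p = 0.28). None of the 6 measured genes of the list of Hsf and the Hsp90 system passed, and the list median was -0.44. p23, an Hsp90 co-chaperone, was at -0.85 ± 0.41 (limma adjusted p = 0.111), CG1416 at -0.81 ± 0.46 (0.135) and the immunophilin gene Fkbp59 at -0.73 ± 0.60 (0.207). Among 6 measured small heat shock protein genes, whose products hold unfolded proteins without ATP, 1 rose and 0 fell. Of all features 0.396% rose and 0.425% fell. The median of the 6 genes was 0.081, and it was 0.043 without replicate 2 and 0.020 without replicate 3. Hsp27 rose by 1.16 ± 0.07 (SD, n = 4; limma adjusted p = 0.0447), with 1.11, 1.24, 1.09 and 1.18 on replicates 1 to 4. Its call was lost without any 1 of the arrays (limma adjusted p = 0.217, 0.22, 0.142 and 0.0553 without replicates 1 to 4, log2 1.13 to 1.18). The others were not past the threshold, among them l(2)efl at -1.19 ± 0.93, Hsp26 at 0.37 ± 0.60 and CG4461 at 0.17 ± 0.42.

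None of the 17 measured Hsp70 co-chaperone genes, mostly J-domain proteins and adaptors, passed. Of them 9 had means above and 8 below 0, near the 51.5% and 48.5% of all features. The median of 0.14 was -0.017 without replicate 1, 0.0060 without replicate 2 and 0.0068 without replicate 4. DnaJ-60, a J-domain gene, was at 1.07 ± 0.33 (SD, n = 4; limma adjusted p = 0.0649) and above 0 on all arrays. CG5001 was at -0.74 ± 0.39 (0.136), Droj2, also a J-domain gene, at -0.53 ± 0.50 (0.276) and Sgt at -0.48 ± 0.44 (0.285).

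Chaperones of the compartments that hold the cognates were read beside all features, 48.5% of which had means below 0. Of 19 measured genes of the endoplasmic reticulum list 0 passed, and 16 had means below 0, with a median of -0.40. ERp60 and Pdi, both protein disulphide isomerases, were at -0.97 ± 0.40 (SD, n = 4; limma adjusted p = 0.0868) and -1.02 ± 0.58 (0.114). P58IPK, a J-domain partner of BiP, was at -0.90 ± 0.61 (0.148) and Der-1, a degradation gene, at -0.57 ± 0.16 (0.146). Of 12 mitochondrial chaperone and protease genes 0 passed and 8 had means below 0, a share less far from that of all features, with a median of -0.24 that was -0.13 without replicate 3. Over the Cy5 and the Cy3 arrays this median was -0.091 and -0.39. Hsp60A, the mitochondrial chaperonin, was at -1.14 ± 0.30 (limma adjusted p = 0.0591), close to Hsc70-5. Roe1, the GrpE exchange factor that serves the mitochondrial Hsp70, was at -1.07 ± 0.46 (0.0818), CG11267 at -1.04 ± 0.74 (0.148) and Trap1, the mitochondrial Hsp90, at -0.38 ± 0.11 (0.261). All 7 measured subunits of the cytosolic TRiC chaperonin had means below 0, with 0 past the threshold and a median of -0.67. CCT1, CCT7, CCT3 and CCT8 were at -0.70 ± 0.25, -0.70 ± 0.27, -0.55 ± 0.19 and -0.67 ± 0.40.

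**Figure D4:**
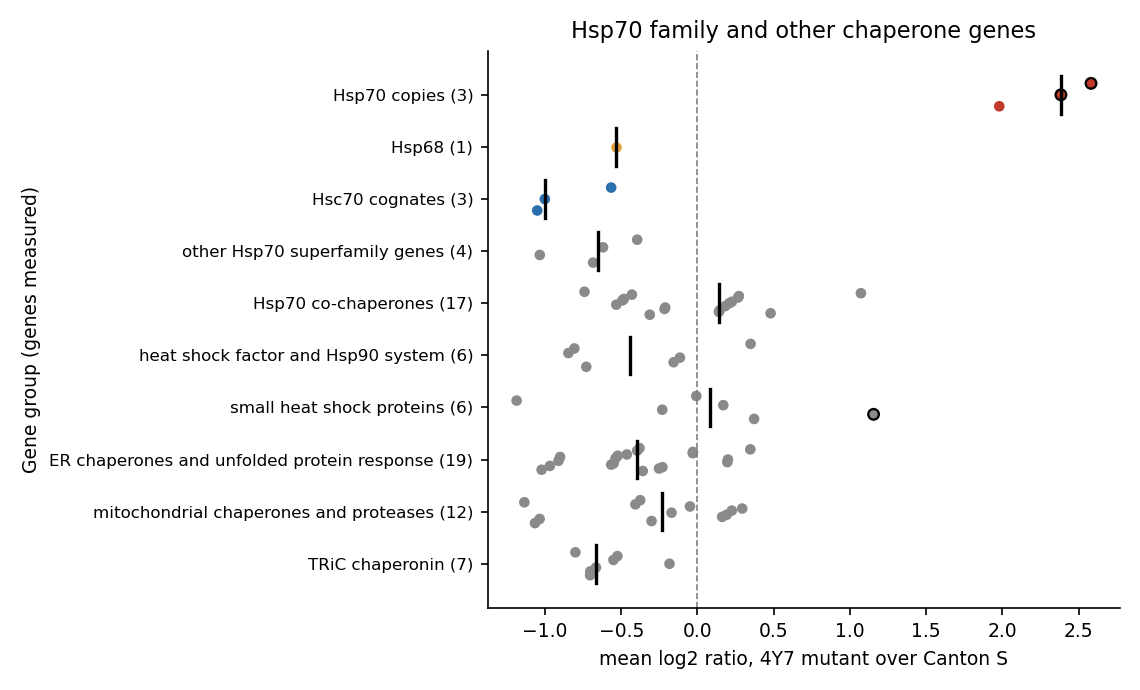
Mean log2 ratio of 4Y7 mutant over Canton S (horizontal axis) of each measured gene in the Hsp70 family classes and in 7 lists of other chaperone genes, with 1 dot a gene, a vertical bar at the median of each group and a black outline on genes past the adjusted threshold. The outlined genes are Hsp70Ba, Hsp70Bbb and Hsp27, and the medians of the cognates (-1.001), the other superfamily genes (-0.65) and TRiC (-0.67) lie left of 0.

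Among markers of larval tissues 0 passed the threshold, and those of muscle and salivary glue also lay off 0. All 11 measured muscle markers had means below 0, against 48.5% of all features, and 7 of them were lower on all arrays, against 14.9%, with medians of -0.61, -0.70, -0.90 and -0.07 on replicates 1 to 4. All 7 measured salivary glue markers had means above 0, against 51.5% of all features, and 5 of them were higher on all arrays, against 14%, with medians of 1.30, 0.93, 1.20 and 0.70. The 3 measured fat body and serum protein markers had means on both sides of 0, from -0.23 to 0.27, with a median of 0.26. Their medians on replicates 1 to 4 were 3.52, 0.60, -2.02 and 0.50, so the arrays differed widely in them, and replicate 3 was the lowest. Replicate 3 also had the highest mean of the Hsp70 copies, and the part of these tissues in the family's values was not tested.

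The 6 nearest measured genes at the Hsp70A locus had mean log2 ratios from -0.75 to 0.32 with a median of 0.04, and the 6 at the Hsp70B locus from -0.79 to 0.18 with a median of -0.05. Of the 36 neighbours of all members 0 passed limma, 3 were higher on all 4 arrays and 6 lower. Of all features 0.821% passed, 14% were higher on all 4 arrays and 14.9% lower. The gene order comes from the current RefSeq gene table, whose build the deposited values do not name, so no positions are given.

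**Figure D5:**
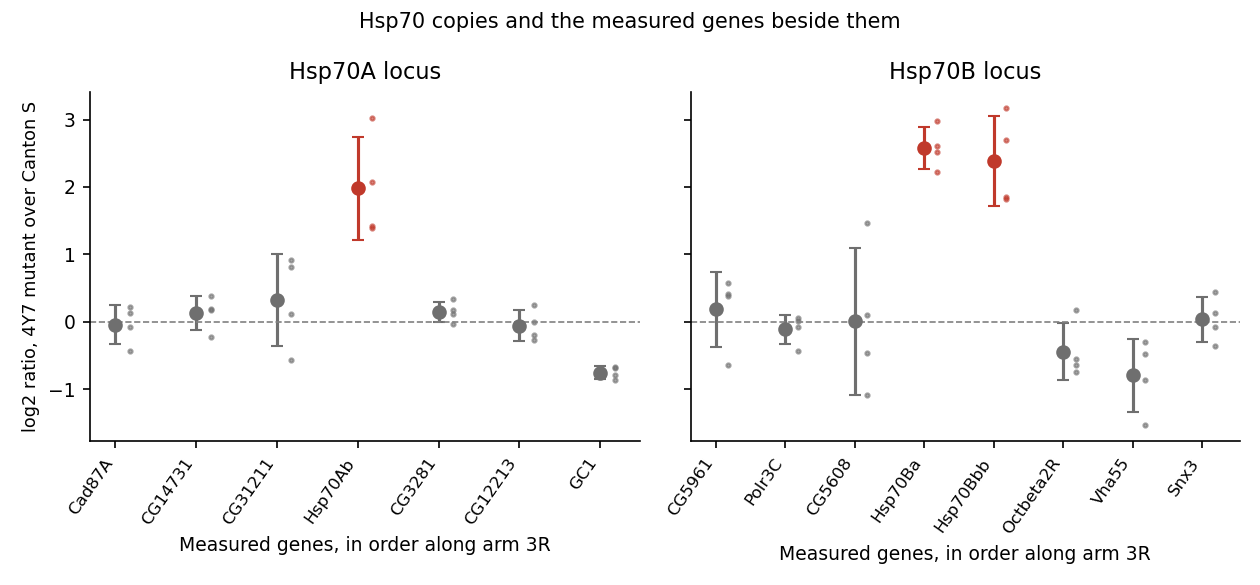
Mean log2 ratio of 4Y7 mutant over Canton S with SD whiskers, and the 4 array values as small dots, for the measured Hsp70 copies (red) and the 3 nearest measured genes on each side (grey), in chromosomal order without scale. The copies lie at 1.98 to 2.58, and the mean of every neighbour shown lies between -0.79 and 0.32.

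Closeness of values was measured as the root mean square difference in log2 ratio over the 4 arrays, among 11973 named genes outside the family. The ratios were not centred, so a near gene had a similar level and not always a similar course over the arrays. Nearest to the mean of the 4 inducible genes were GstD3 (0.28), lectin-37Da (0.28), GstD6 (0.31), CG13218 (0.31) and CG5550 (0.33). That mean mixes Hsp68 with the copies, and the profile of the 3 copies alone, added after the values were seen, was nearest to Cpr47Eb (0.45), CR14499 (0.47), CG11426 (0.49), Idgf1 (0.51) and BomS2 (0.53). Nearest to the mean of the cognates were CAH9 (0.08), Ccdc56 (0.08), Ref1 (0.09), Srp68 (0.09) and EMC4 (0.11).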

How the data were processed

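The deposited values were 1 log2 ratio per probe and array, made by the authors from 2-colour arrays. Their base was taken as 2 from the values, which reached -13.22. The sources used here do not give their direction, centring or within-array normalization. TRIzol extraction and Klenow labelling were used, per the labels. Of 14569 probes 12658 had 1 gene symbol, 96 several and 1815 none. Probes of 1 gene were averaged per array, and 0 symbols needed renewal.

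Each feature's mean was tested against 0 with limma 3.58.1 (lmFit, eBayes, two-sided, Benjamini-Hochberg over all features, threshold 0.05) in R 4.3.3, and the procedure was tested on simulated data. Tables and figures used Python 3.11.15, pandas 2.3.3 and matplotlib 3.10.9. SDs are over 4 arrays, the series' biological replicates, and this number limits precision. No background or brightness was available to the fit.

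All family members are named, with, per list, Hsf, genes past the threshold and the 4 with the smallest p, and the 5 genes nearest to each mean profile. Members and lists were chosen with earlier results of these data known. Alternatives were leaving out each array, a dye term, other normalizations, array weights, single dye orientations, single probes and turned arrays. Promoter motifs and protein identity were planned and not analysed here.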

Additional observations from a re-analysis of the deposited data

Results flagged for a closer look

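Of 53 values of named genes and group means examined for an array far from the other 3, 2 stood out, close to the 5% that chance gives. CG4461, in the small heat shock list, had a log2 ratio of -0.46 on replicate 1, while its other values lay between 0.34 and 0.45. CG11426, named for values close to those of the Hsp70 copies, had 2.17 on replicate 3 and 1.81 to 1.84 on the others. No family member was among them.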

How the results depend on the processing

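Apart from turned arrays, where some members changed sign, all 7 members kept their sign under every alternative. The size of a ratio moved less than its call. Leaving out 1 array gave 0 to 21 changed features and 0 to 1 changed members (0 and 0 without replicate 1, where 2052 features and 5 members had an unadjusted limma p under 0.05), against 114 features and 2 members with all arrays. With a dye term limma called 0 features and 0 members (3537 and 7 at an unadjusted p under 0.05), with Hsp70Ba at an adjusted p of 0.0509. Array weights, estimated from the same arrays, ran from 0.232 for replicate 4 to 5.47 for replicate 2, so that replicate 2 dominated. They gave 6079 features, 43.8% of all, and 7 members. The arrays with the mutant in Cy5 alone gave 4 features and 0 members, and those with it in Cy3 alone 2573 features and 5 members. Scale, quantile and median centring gave 99, 90 and 116 features, single probes 91, and the share of calls that were higher was 61.1% after quantile normalization and 48.2% before. The inducible minus cognate difference was 2.22 to 2.61 when 1 array was left out and 3.19 without Hsp68.

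With the Cy3 arrays turned, as if the ratios had been deposited as Cy5 over Cy3, limma called 0 features and 0 members (1053 and 0 at an unadjusted p under 0.05). The inducible minus cognate difference was then -0.31. Hsp70Ab was at -0.57, Hsp70Ba at -0.17, Hsc70-3 at 0.25, Hsc70-5 at 0.23 and Hsp27 at -0.011. Hsp70Bbb, at 0.13, Hsp68, at -0.087, and Hsc70-4, at -0.071, kept their sign. List medians that changed sign were those of the co-chaperones (-0.017 to 0.11 with 1 array left out, lowest without replicate 1, -0.11 over the Cy5 and -0.091 over the Cy3 arrays), the small heat shock genes (-0.066 over the Cy5 arrays) and the fat body markers (-0.81 to 1.04 with 1 array left out, below 0 without replicates 1 and 2, -1.19 over the Cy3 arrays). The split by dye was added for lists after the data were seen, and the cause was not tested. No paired analysis was possible because each array already sets 1 mutant against 1 wild-type sample, which leaves a single group of ratios. No probe listed several copies, so that alternative was not run. Signal over background was not analysed here.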
